A study of Bos indicus with 5 samples.

Results

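The integrins, the laminins and the proteins of focal adhesions were examined in the ampulla, the section of the oviduct in which fertilization takes place. They were taken by symbol alone, as the integrin alpha and beta chains, the laminin chains, NID1, NID2, AGRN, HSPG2, FN1, VTN, TNC, TNXB, VCL, the talins, PXN, ZYX, FLNA, ACTN1, ACTN4, ILK, PARVA, the kindlins (FERMT genes), the tensins and PTK2. Of the 24616 genes deposited, 61 matched, and 59 of the 61 had a mean above 5 normalized reads over the 5 libraries and were tested together with every other gene above that mean, 15815 in all. VTN and LAMB4 were below it and were not tested. LAMC1 was carried by 2 entries (ENSBTAG00000011966 and ENSBTAG00000022635), and which of them is the LAMC1 locus was not settled here. ITGAX, ITGB3, LAMB2, LAMC3 and TNS2 matched no row by symbol and are not analysed here.

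Tissue of the full thickness of the oviduct wall was collected on day 4 from healthy, multiparous Nelore cows (Bos indicus), and polyA RNA was sequenced with 1 library per cow. All cows carried an intravaginal progesterone device, were given 2 mg of estradiol benzoate when it was inserted and prostaglandin F when it was removed, and ovulated after a GnRH injection. In the large follicle and large corpus luteum group (LF/LCL, n = 2) cows also received prostaglandin F at insertion and the device came out 42 h before GnRH. In the small follicle and small corpus luteum group (SF/SCL, n = 3) it came out 30 h before GnRH. The sequenced cows were the extremes of each group by follicle, corpus luteum and hormone measurements, and a further LF/LCL library was discarded by the authors for its quality, so the libraries do not stand for the average cow of a group. The 5 libraries held from 13418278 to 19592174 reads in genes. Markers of the oviduct lining were abundant in each library: OVGP1, the oviduct glycoprotein of secretory cells, had from 117179 to 147247 normalized reads, and FOXJ1, the master regulator of motile cilia, had from 8481 to 12698.

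Integrins are cell surface receptors made of an alpha and a beta chain. Outside the cell they bind laminins, collagens or fibronectin, and inside the cell their tails recruit talin, kindlins and the ILK and parvin complex, which lead through vinculin, alpha-actinin and filamin to actin. Laminins, each made of an alpha, a beta and a gamma chain, form the sheet of the basement membrane, which nidogens, agrin and perlecan tie together. In the oviduct such membranes lie under the lining epithelium and around vessels, nerves and every smooth muscle cell.

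The comparison of LF/LCL with SF/SCL asks how the ampulla differs between cows with a larger and a smaller follicle and corpus luteum. LAMA4, TNC, VCL, ACTN1, FLNA and PARVA, genes of the matrix end and of the actin end of the adhesion machinery, were higher in both LF/LCL libraries than in all 3 SF/SCL libraries. LAMA5, ITGB4 and ITGAD were also higher without overlap. ITGAD had only 9 and 9 reads in LF/LCL against 6, 7 and 3 in SF/SCL. Its SF/SCL mean of 4.97 lay below the limit of 5, so it was tested only because of its LF/LCL level. Of the 59 tested genes 16.9% were higher without overlap, near the 15.0% of all genes, and 3.39% were lower without overlap, against 15.1%. LAMA3, the alpha chain of the epithelial anchoring laminin, and PTK2, the focal adhesion kinase, were lower in both LF/LCL libraries than in every SF/SCL library. An unadjusted p under 0.05 by limma was found for 13.6% of the 59 tested genes, against 11.5% of all genes, and for no integrin chain. For the 13 integrin alpha chains outside leukocytes the groups overlapped in every case, where 30.1% of all genes showed no overlap. No gene passed the test at an adjusted p under 0.05 with limma, neither among the 59 tested here (smallest adjusted p 0.246) nor among all genes (0%, smallest 0.178). DESeq2 on the reads recovered from the table passed 3 of the 59, LAMA4 and TNC as higher and LAMA3 as lower, while it passed 2.89% of all genes, 1.38% as higher and 1.50% as lower.

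Levels are given as normalized reads, fold changes are LF/LCL over SF/SCL on the scale of log2(value + 1) with their standard error (SE), and adjusted p-values are those of limma over the 15815 genes unless DESeq2 is named. Because the samples are whole tissue, fewer cells of a type and less RNA per cell cannot be told apart.

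Of the 59 tested genes 42 had a log2 fold change above 0 and 17 below, which is 71.2% higher against 50.8% of all genes, and their median was 0.23 against 0.01 for all genes. An unadjusted p under 0.05 was found for 8 (limma), 7 higher and 1 lower, where 11.5% of all genes had one, 5.64% as higher and 5.86% as lower. By edgeR's quasi-likelihood test 8 also had one, and none passed adjustment (smallest adjusted p 0.253). The groups did not overlap for 12, of which 10 were higher and 2 lower in LF/LCL, while 30.1% of all genes showed no overlap, 15.0% as higher and 15.1% as lower. The 12 are 20.3% of the 59, a share below that of all genes.

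LF/LCL replicate 1 stood apart in these genes. It was the highest of the 5 libraries in 26 of the 59 genes, 44.1% against 21.9% of all genes, and SF/SCL replicate 2 was the lowest in 23, 39.0% against 18.7%. The other LF/LCL library was the highest in 8. Within LF/LCL, replicate 1 exceeded replicate 2 by more than 2-fold in 7 genes, 11.9% against 5.80% of all genes, and replicate 2 exceeded replicate 1 so far in 0 of the 59, against 6.35% of all genes. Without LF/LCL replicate 1 the median of the 59 was 0.05, 35 of them were above 0 and 3 had an unadjusted p under 0.05. Without LF/LCL replicate 2, 18 had an unadjusted p under 0.05.

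**Figure D1:**
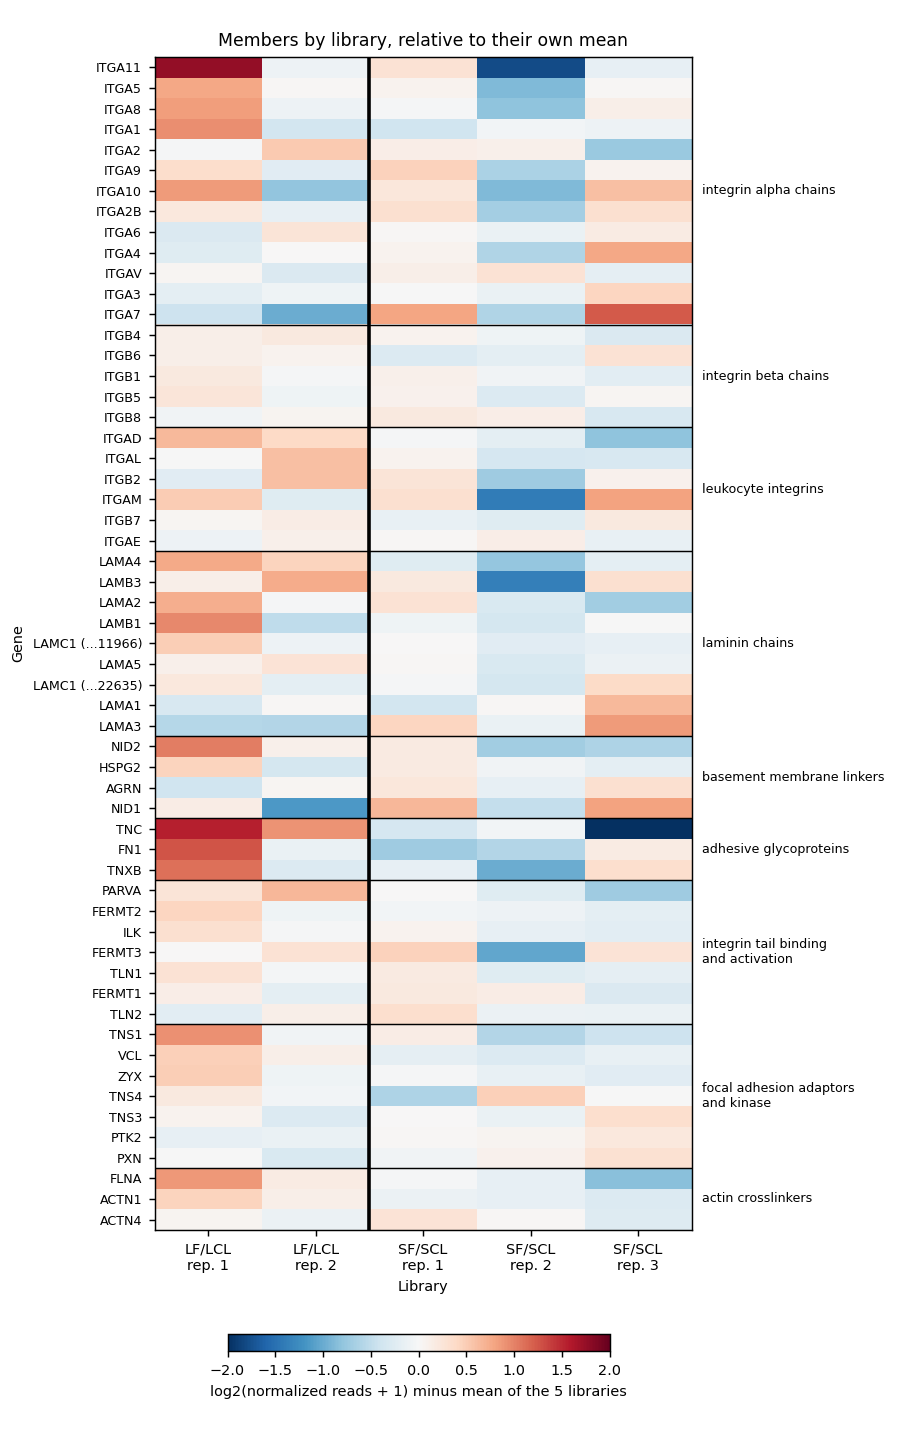
Each row is a gene (57 of the 59 are drawn) and each column a library; colour gives log2(normalized reads + 1) minus the gene's own mean over the 5 libraries, with differences beyond 2 drawn in the end colour, and genes are grouped by role. LF/LCL replicate 1 was the highest library for 26 of the 59 genes, and the reddest cells of the adhesive glycoproteins and of ITGA11 lie in that column.

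Among the laminins, LAMA4 was higher and LAMA3 lower in LF/LCL, and the other chains lay between them. LAMA4 encodes the alpha chain of laminins in the basement membranes of vessels, muscle and fat. Its level was 1528 and 1223 in LF/LCL against 759, 525 and 786 in SF/SCL, so that the lower LF/LCL library was well above the highest SF/SCL library. The log2 fold change was 1.01 ± 0.21 (SE), with an adjusted p of 0.246 by limma and of 0.00489 by DESeq2. It ranged from 0.82 to 1.17 when each library was left out in turn.

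LAMA3 joins LAMB3 in the laminin that anchors epithelia, where the integrin of ITGA6 and ITGB4 binds it. Its level was 2681 and 2661 in LF/LCL against 5380.4, 3614 and 7177 in SF/SCL. The LF/LCL libraries were nearly equal and lay below every SF/SCL library, while the highest SF/SCL library was 1.99 times the lowest. The log2 fold change was -0.96 ± 0.28 (SE), with an adjusted p of 0.329 by limma and of 0.0268 by DESeq2, and it ranged from -1.22 to -0.72 with each library left out.

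For its partner chain LAMB3 the groups overlapped, with a log2 fold change of 0.72 ± 0.55 (SE). LAMA5, the main alpha chain of mature epithelial and vessel basement membranes, was 3602 and 4055 in LF/LCL against 3409, 2701 and 3096 in SF/SCL. Its groups did not overlap, but the lowest LF/LCL library exceeded the highest SF/SCL library by little, and the log2 fold change of 0.32 ± 0.13 (SE) had an adjusted p of 0.435. LAMA1, LAMA2, LAMB1 and both LAMC1 entries had log2 fold changes from -0.25 for LAMA1 to 0.59 for LAMA2, with overlapping groups. Over the 10 tested laminin rows 7 were higher and 3 lower, with a median log2 fold change of 0.33 that became -0.01 without LF/LCL replicate 1 and 0.21 without SF/SCL replicate 2.

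The proteins that link the basement membrane differed in direction, NID2 higher and NID1 and AGRN lower. NID2 and NID1, the nidogens, bridge laminin and the collagen network. NID2 was 888 and 468 in LF/LCL against 494, 268 and 284 in SF/SCL, and NID1 was 646 and 260.4 in LF/LCL against 921, 418 and 1009.9 in SF/SCL. For NID2 only LF/LCL replicate 1 stood above the SF/SCL libraries, since SF/SCL replicate 1 exceeded LF/LCL replicate 2. The log2 fold change of NID2 was 0.94 ± 0.37 (SE), with an unadjusted p of 0.0461 and an adjusted p of 0.424, and it was 0.48 without LF/LCL replicate 1. For NID1 the log2 fold change was -0.83 ± 0.53 (SE), and its LF/LCL libraries differed 2.48-fold from each other.

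AGRN, agrin, is a heparan sulfate proteoglycan that binds laminin and dystroglycan. It was 4170.4 and 5619.8 in LF/LCL against 6396, 4878 and 6824 in SF/SCL, where LF/LCL replicate 2 lay inside the SF/SCL range. Its log2 fold change was -0.30 ± 0.20 (SE). HSPG2, perlecan, had a log2 fold change of 0.07 ± 0.25 (SE), with the highest and the lowest of the 5 values both in LF/LCL.

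Of the adhesive glycoproteins, TNC had the largest log2 fold change of the 59 tested genes. TNC, tenascin C, is a matrix protein of remodelling connective tissue. It was 1343 and 847 in LF/LCL against 359.7, 438 and 107 in SF/SCL, so both LF/LCL libraries lay above the SF/SCL libraries and SF/SCL replicate 3 lay far below the other two. The log2 fold change was 2.05 ± 0.63 (SE), with an adjusted p of 0.347 by limma and of 0.0258 by DESeq2. It was smallest, 1.42, without SF/SCL replicate 3.

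FN1, fibronectin, and TNXB, a tenascin of loose connective tissue that associates with collagen, were high in LF/LCL replicate 1 alone. FN1 was 4398 and 1667 in LF/LCL against 1122, 1227 and 2063 in SF/SCL, and TNXB was 3186 and 1221 in LF/LCL against 1321, 741 and 1881 in SF/SCL. LF/LCL replicate 1 exceeded LF/LCL replicate 2 2.64-fold in FN1 and 2.61-fold in TNXB, and LF/LCL replicate 2 lay inside the SF/SCL range. The log2 fold changes were 0.93 ± 0.46 for FN1 and 0.69 ± 0.53 for TNXB (SE), and without LF/LCL replicate 1 they were 0.23 and -0.01. VTN, vitronectin, a plasma protein made mainly by the liver, was too low for the test and is named here after its values were seen. It had 13 and 4 reads in the LF/LCL libraries and 0 in each SF/SCL library. Its share of reads was 9.32-fold higher in LF/LCL if 3 reads over the SF/SCL group are taken as the limit that a count of 0 allows. That limit covers counting error of the SF/SCL count only, and not the spread between cows. The LF/LCL reads were pooled over both cows and taken as exact, so the ratio is not a lower bound of the difference. Most of the LF/LCL reads came from replicate 1. Without that library, an alternative chosen after the values were seen, the ratio was 4.01-fold and rested on 4 reads. The ratio was 15.7-fold without LF/LCL replicate 2 and from 5.57-fold to 6.58-fold without an SF/SCL library, where the depth behind the count of 0 is smaller.

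**Figure D2:**
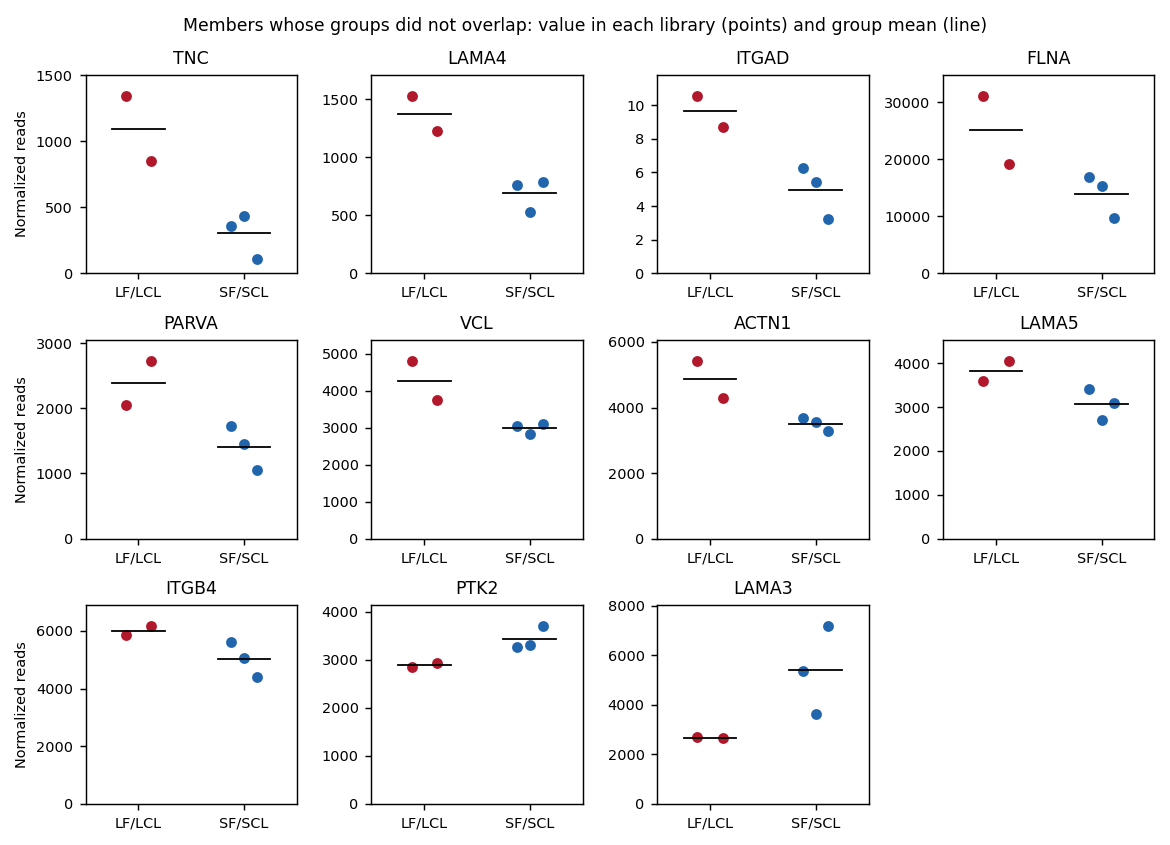
Each of the 11 panels shows a gene whose groups did not overlap, with normalized reads on a vertical axis that starts at 0, a point per library (LF/LCL red, SF/SCL blue) and a line at the group mean. The genes from TNC to ITGB4 lie higher in LF/LCL and PTK2 and LAMA3 lie lower, and LAMA4, VCL and ACTN1 have the smallest p among them by limma.

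The integrin alpha chains outside leukocytes were 8 higher and 5 lower, with a median log2 fold change of 0.05 that turned to -0.15 without LF/LCL replicate 1 and to -0.11 without SF/SCL replicate 2. Without LF/LCL replicate 2 it was 0.22. The 3 with the smallest p were ITGA7, ITGA5 and ITGA11. ITGA7, the laminin receptor chain of muscle cells, was 919 and 619 in LF/LCL against 2126, 809.8 and 2868 in SF/SCL. It was lower in LF/LCL on average, with a log2 fold change of -1.17 ± 0.54 (SE) and an adjusted p of 0.481, but SF/SCL replicate 2 lay within the LF/LCL range. Its direction was opposite to that of the smooth muscle markers, whose median was 1.50.

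ITGA5, the fibronectin receptor chain, was 908 and 538 in LF/LCL against 554, 287 and 539 in SF/SCL. ITGA11, a collagen receptor chain of fibroblasts, was 129 and 34.8 in LF/LCL against 45.7, 10.1 and 33.3 in SF/SCL. In both, LF/LCL replicate 1 was the highest and SF/SCL replicate 2 the lowest library, and LF/LCL replicate 2 lay among the SF/SCL values. The log2 fold changes were 0.66 ± 0.37 and 1.39 ± 0.82 (SE), with adjusted p of 0.550 and 0.576 by limma, and without LF/LCL replicate 1 they were 0.29 and 0.46. ITGA6, the laminin receptor chain of epithelial hemidesmosomes, was 2750.2 and 4021 in LF/LCL against 3422, 3086 and 3765 in SF/SCL. Its LF/LCL libraries enclosed all 3 SF/SCL libraries and the log2 fold change was -0.04 ± 0.18 (SE). The collagen receptor chains ITGA1 and ITGA2 had log2 fold changes of 0.47 ± 0.38 and 0.41 ± 0.32 (SE), ITGA8 had 0.60 ± 0.38, and ITGAV, the chain shared by several receptors of vitronectin and fibronectin, had -0.20 ± 0.18.

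ITGA2B is known as the platelet chain of the fibrinogen receptor, and its partner ITGB3 is not analysed here. It was 287 and 223 in LF/LCL against 313, 155 and 310.2 in SF/SCL, with a log2 fold change of 0.03 ± 0.35 (SE). The platelet markers PPBP and GP1BA were at 0 in all 5 libraries, and PF4 and GP9 did not exceed 2.33 in any. Of the blood and platelet list 3 rows were tested, ITGA2B and both entries of HBA. The platelet markers are named after their values were seen, and the source of the ITGA2B reads was not tested.

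The log2 fold changes of the 5 beta chains ran from -0.01 to 0.26. ITGB1, which pairs with most of the alpha chains, was 12294 and 10533 in LF/LCL against 11524, 10175 and 9278 in SF/SCL, with a log2 fold change of 0.15 ± 0.14 (SE). ITGB5, a partner of ITGAV, was 2278 and 1806 in LF/LCL against 2041, 1599 and 1976 in SF/SCL, with a log2 fold change of 0.12 ± 0.16 (SE). The groups of both genes overlapped. ITGB4, the hemidesmosome partner of ITGA6, was 5843 and 6163 in LF/LCL against 5629, 5061 and 4408 in SF/SCL, with no overlap, a log2 fold change of 0.26 ± 0.13 (SE) and an adjusted p of 0.506. ITGB6 and ITGB8, partners of ITGAV in epithelia, had log2 fold changes of 0.15 ± 0.24 and -0.01 ± 0.18 (SE).

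The 6 leukocyte integrin chains had log2 fold changes above 0, with a median of 0.27 (0.07 without SF/SCL replicate 2, 0.47 without LF/LCL replicate 1), but ITGAE was at 0.001 and turned to -0.0018 with TMM scaling and -0.035 with library size scaling. ITGAM had 0.23 ± 0.71 (SE) by limma but 0.019 by DESeq2, with a mean of 51.1 in LF/LCL and 50.6 in SF/SCL. For ITGB2 the log2 fold change was 0.31 ± 0.37 (SE). ITGAL, the alpha chain of the lymphocyte integrin that binds ICAM proteins, was 110.2 and 169 in LF/LCL against 117, 87.8 and 89.1 in SF/SCL. LF/LCL replicate 2 was the highest library and LF/LCL replicate 1 lay inside the SF/SCL range, with a log2 fold change of 0.49 ± 0.30 (SE). ITGAD, a partner of ITGB2 found on some macrophages, was 10.6 and 8.71 in LF/LCL against 6.24, 5.44 and 3.22 in SF/SCL, with no overlap but few reads and a log2 fold change of 0.87 ± 0.64 (SE). ITGB7 and ITGAE, which form the E-cadherin receptor of lymphocytes within epithelium, were near equal between groups. ITGB7 was 301 and 327 in LF/LCL against 266, 248 and 337 in SF/SCL, and ITGAE was 308 and 353 in LF/LCL against 335, 361 and 297 in SF/SCL. Their log2 fold changes were 0.16 ± 0.19 and 0.00 ± 0.16 (SE). In the leukocyte marker list 12 of 14 tested genes were higher, with a median of 0.48 (0.28 without LF/LCL replicate 2, 0.81 without LF/LCL replicate 1). IL2RG and CD3E had log2 fold changes of 1.10 ± 0.24 and 0.85 ± 0.23 (SE). The study picked both from these libraries for its own gene lists, so their direction is not independent of that choice. The lower genes were CD68 and CD14, with log2 fold changes of -0.70 ± 0.48 and -0.46 ± 0.43 (SE), and the groups of CD68 did not overlap. The summed level of the leukocyte marker list was 7128 and 9506 in LF/LCL against 7464, 4532 and 5857 in SF/SCL, and its part in the leukocyte integrin values was not tested.

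Inside the cell, the proteins bound to integrin tails were 5 higher and 2 lower, and PARVA had the smallest p of them. PARVA, alpha-parvin, binds ILK and actin. It was 2049 and 2725 in LF/LCL against 1730.0, 1451 and 1051 in SF/SCL, without overlap and with LF/LCL replicate 2 the highest, unlike most of the other genes. The log2 fold change was 0.77 ± 0.24 (SE), with an unadjusted p of 0.0178, an adjusted p of 0.345 by limma and of 0.105 by DESeq2. ILK, the integrin-linked pseudokinase that holds PARVA at the membrane, was 3355 and 2659 in LF/LCL against 2818, 2408 and 2323 in SF/SCL. FERMT2, the kindlin of most adherent cells, was 2444 and 1704 in LF/LCL against 1745, 1683 and 1587 in SF/SCL. In both, LF/LCL replicate 2 lay within the SF/SCL range and only LF/LCL replicate 1 was above it. Their log2 fold changes were 0.25 ± 0.15 and 0.29 ± 0.17 (SE), and 0.08 and 0.03 without that library.

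TLN1, talin, which switches integrins on, was 8286 and 6566 in LF/LCL against 7668, 5697 and 5974 in SF/SCL, with overlapping groups and a log2 fold change of 0.21 ± 0.17 (SE). TLN2, FERMT1, the kindlin of epithelia, and FERMT3, that of blood cells, had log2 fold changes of -0.07 ± 0.21, -0.05 ± 0.19 and 0.25 ± 0.53 (SE). Over the 7 genes of this class the median was 0.25, with 0.08 without LF/LCL replicate 1, 0.12 without SF/SCL replicate 2 and 0.37 without LF/LCL replicate 2.

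Among the adaptors, VCL was higher and PTK2 lower, each without overlap. VCL, vinculin, couples talin to actin, and it was 4801 and 3745 in LF/LCL against 3048, 2834 and 3097 in SF/SCL. The SF/SCL libraries lay close together and both LF/LCL libraries were above them. The log2 fold change was 0.50 ± 0.13 (SE), with an adjusted p of 0.306 by limma and of 0.0582 by DESeq2. It was 0.32 without LF/LCL replicate 1 and 0.68 without LF/LCL replicate 2. PTK2, the focal adhesion kinase, was 2847 and 2929.9 in LF/LCL against 3267, 3315 and 3700.3 in SF/SCL. The difference was small and the libraries of each group were close, with a log2 fold change of -0.24 ± 0.10 (SE) and an adjusted p of 0.450.

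TNS1, a tensin that ties integrin tails to actin in mature adhesions, was 5045 and 2562 in LF/LCL against 2982, 1776 and 2017 in SF/SCL. It was high in LF/LCL replicate 1 only, with a log2 fold change of 0.71 ± 0.35 (SE) that became 0.22 without that library. ZYX, zyxin, had a log2 fold change of 0.33 ± 0.18, PXN, paxillin, -0.27 ± 0.16, TNS3 -0.17 ± 0.18 and TNS4 0.12 ± 0.35 (SE), all with overlapping groups.

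Of the actin crosslinkers, FLNA and ACTN1 were higher in LF/LCL without overlap and ACTN4 was not. ACTN1, a non-muscle alpha-actinin, was 5418 and 4301 in LF/LCL against 3673, 3545 and 3276 in SF/SCL. FLNA, filamin A, was 31117 and 19101 in LF/LCL against 16944, 15232 and 9626 in SF/SCL. LF/LCL replicate 1 was the highest library of both, and SF/SCL replicate 3 the lowest. The log2 fold changes were 0.47 ± 0.13 for ACTN1 and 0.85 ± 0.31 for FLNA (SE), with adjusted p of 0.317 and 0.401 by limma. Without LF/LCL replicate 1 they were 0.30 and 0.50, and without LF/LCL replicate 2 they were 0.63 and 1.20. ACTN4 had a log2 fold change of -0.04 ± 0.17 (SE). VCL, LAMA4 and ACTN1 were also picked by the study from these libraries for its own gene lists, so their direction here is not independent of that choice. The paper also measured VCL by PCR in more cows of each group and reports it as higher in LF/LCL. Those cows came from the same ranking as the sequenced cows, so the PCR result is not independent of these libraries.

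**Figure D3:**
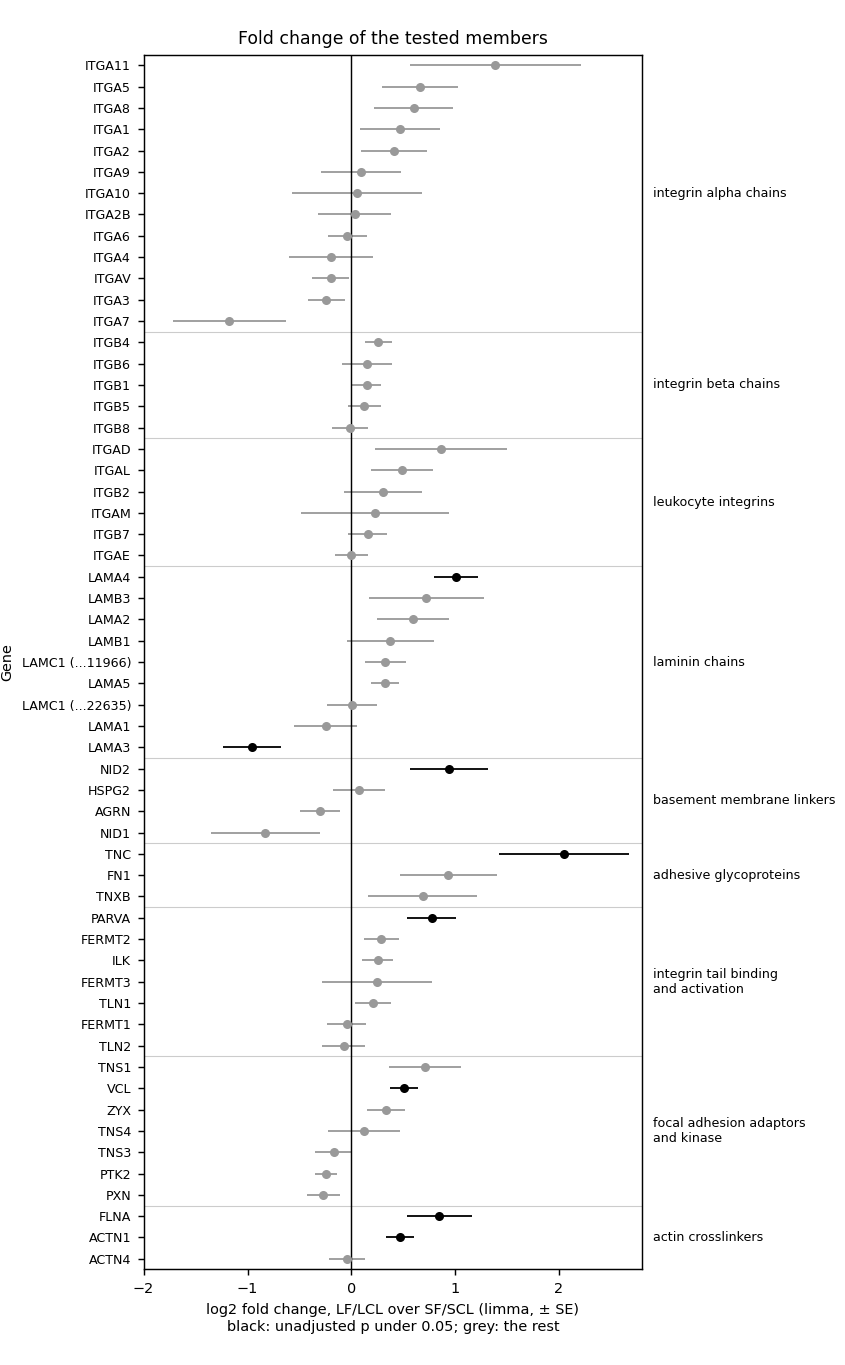
Points give the log2 fold change of LF/LCL over SF/SCL for 57 of the 59 tested genes by role, bars give ± SE from limma, and black marks the 8 with an unadjusted p under 0.05. The black points are LAMA4, NID2, TNC, PARVA, VCL, FLNA and ACTN1 on the right and LAMA3 on the left, and the integrin classes hold none.

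Further focal adhesion genes were mostly higher in LF/LCL, and of 6 hemidesmosome partners 4 were lower and 2 higher. Of 28 further focal adhesion genes 22 were higher, with a median log2 fold change of 0.35 that was 0.21 without LF/LCL replicate 1 and 0.23 without SF/SCL replicate 2. An unadjusted p under 0.05 was found for 10 higher and 1 lower, where 11.5% of all genes had one, and 12 higher and 1 lower did not overlap, where 30.1% of all genes did not. DESeq2 passed 3 of the 28, against 2.89% of all genes. CAV1, the coat protein of caveolae, was 6906 and 5549 in LF/LCL against 3107, 3354 and 1936 in SF/SCL, with a log2 fold change of 1.18 ± 0.26 (SE) and adjusted p of 0.251 by limma and 0.00289 by DESeq2. PDLIM7, an actin-associated LIM protein, was 1939 and 1409 in LF/LCL against 1013, 907 and 758 in SF/SCL, with a log2 fold change of 0.90 ± 0.19 (SE) and a DESeq2 adjusted p of 0.00542. CAV1 and PDLIM7 were likewise picked by the study from these libraries. TGFB1I1, a paxillin relative of smooth muscle, had a DESeq2 adjusted p of 0.0460 with a log2 fold change of 1.06 ± 0.32 (SE), which ranged from 0.56 to 1.56 with each library left out. The 3 genes were higher in both LF/LCL libraries than in every SF/SCL library.

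Of 6 hemidesmosome partners 4 were lower, with a median of -0.20. Lower without overlap were 3 of the 6, and 1 was higher without overlap. Of all genes 15.1% were lower and 15.0% higher without overlap. CD9 was higher without overlap, with a log2 fold change of 0.40 ± 0.17 (SE), and KRT14 had 0.19 ± 0.49. KRT5, counted as lower, had -0.03 ± 0.65. PLEC, plectin, which links the integrin of ITGA6 and ITGB4 to keratin, was 4643 and 4460.2 in LF/LCL against 5821, 5945 and 6087 in SF/SCL. Both groups were tight and did not overlap, and the log2 fold change was -0.39 ± 0.09 (SE), with adjusted p of 0.284 by limma and 0.0101 by DESeq2. DST, dystonin, whose epithelial form is a hemidesmosome plaque protein, was 4460.1 and 4049 in LF/LCL against 6284, 4591 and 5661 in SF/SCL. Its groups did not overlap, and the log2 fold change was -0.36 ± 0.15 (SE). LAMA3 and PLEC were thus lower in LF/LCL while ITGB4 was slightly higher and ITGA6 even. Without LF/LCL replicate 2 or without SF/SCL replicate 1 the median of the 6 was 0.06 and 0.11.

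Of 15 other matrix receptors 6 were higher and 9 lower, with a median of -0.05. CD44, the hyaluronan receptor, was 352 and 308 in LF/LCL against 139, 212 and 217 in SF/SCL, with a log2 fold change of 0.82 ± 0.25 (SE). SDC4, the syndecan of focal adhesions, was 998 and 874 in LF/LCL against 1197, 1485 and 1207 in SF/SCL, with a log2 fold change of -0.47 ± 0.14 (SE). Neither gene's groups overlapped, and neither passed adjustment by limma (0.333 and 0.331) or DESeq2 (0.120 and 0.164). Of 17 further adhesive matrix proteins 10 were higher and 7 lower, with a median of 0.14 that was -0.30 without LF/LCL replicate 1 and -0.22 without SF/SCL replicate 2. EMILIN1, an elastic fibre protein, was 4795 and 3203 in LF/LCL against 2022, 1379 and 1372 in SF/SCL, with a log2 fold change of 1.32 ± 0.25 (SE) and a DESeq2 adjusted p of 0.000223. THBS3, a thrombospondin, was 247 and 367 in LF/LCL against 550.0, 577 and 745 in SF/SCL, with a log2 fold change of -1.03 ± 0.22 (SE) and a DESeq2 adjusted p of 0.0110.

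Markers of the cell layers differed between the same libraries. All 12 smooth muscle markers matched were higher in LF/LCL, with a median log2 fold change of 1.50 that was 0.97 without LF/LCL replicate 1. In 10 of them the groups did not overlap, where 15.0% of all genes were higher without overlap, and DES and LMOD1 had log2 fold changes of 1.76 ± 0.45 and 1.18 ± 0.30 (SE). Their summed level was 143237 and 75519 in LF/LCL against 46934, 49755 and 19404 in SF/SCL, lowest in SF/SCL replicate 3. That library was also the lowest for TNC, FLNA, ACTN1 and PARVA, but SF/SCL replicate 2 was the lowest for LAMA4 and VCL. SYNPO2 stands both in this list and among the focal adhesion genes. Stromal fibroblast markers were higher in 8 of 9, with a median of 0.66 that was 0.01 without LF/LCL replicate 1 and 0.24 without SF/SCL replicate 2, and their sums were 80968 and 33033 in LF/LCL against 37045, 21293 and 46099 in SF/SCL.

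All 9 ciliated cell markers matched were lower in LF/LCL, with a median of -0.56, 8 of them without overlap where 15.1% of all genes were lower without overlap, and sums of 27238 and 34140 in LF/LCL against 42606, 45613 and 41053 in SF/SCL. SNTN and ARMC3 had log2 fold changes of -0.86 ± 0.17 and -0.78 ± 0.15 (SE). The 7 genes listed as secretory cell markers were 3 higher and 4 lower with a median of -0.03. Of them 3 were higher and 1 lower without overlap, where 30.1% of all genes showed no overlap. PAX8 had a log2 fold change of 0.62 ± 0.15 and MUC16 -0.56 ± 0.15 (SE). The other higher genes were EPCAM and KRT7, with 0.40 ± 0.16 and 0.45 ± 0.18 (SE). Whether the listed genes mark secretory cells alone was not tested. Endothelial markers were higher in 5 of 8 with a median of 0.19 that turned to -0.30 without LF/LCL replicate 1 and to -0.11 without SF/SCL replicate 2. KDR, a receptor for VEGF on endothelial cells, passed by DESeq2 as lower. Its level was 2080.5 and 1797 in LF/LCL against 3546, 2699 and 3559.8 in SF/SCL, without overlap, and its log2 fold change was -0.75 ± 0.16 (SE; DESeq2 adjusted p 0.00699). Of 4 tested mesothelial markers 3 were lower with a median of -0.91, which was 0.39 without LF/LCL replicate 1. KRT19, a keratin that lining epithelium also makes, was 3516 and 3166 in LF/LCL against 5805, 5066 and 6749 in SF/SCL, lower without overlap, and its log2 fold change was -0.81 ± 0.15 (SE; DESeq2 adjusted p 0.000648). SNTN, KDR and KRT19 were also picked by the study from these libraries for its own gene lists, so their direction is not independent of that choice. The part of these cell layers in the values of LAMA4, TNC, VCL, FLNA, ACTN1, PARVA, LAMA3 and the integrin chains was not tested.

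**Figure D4:**
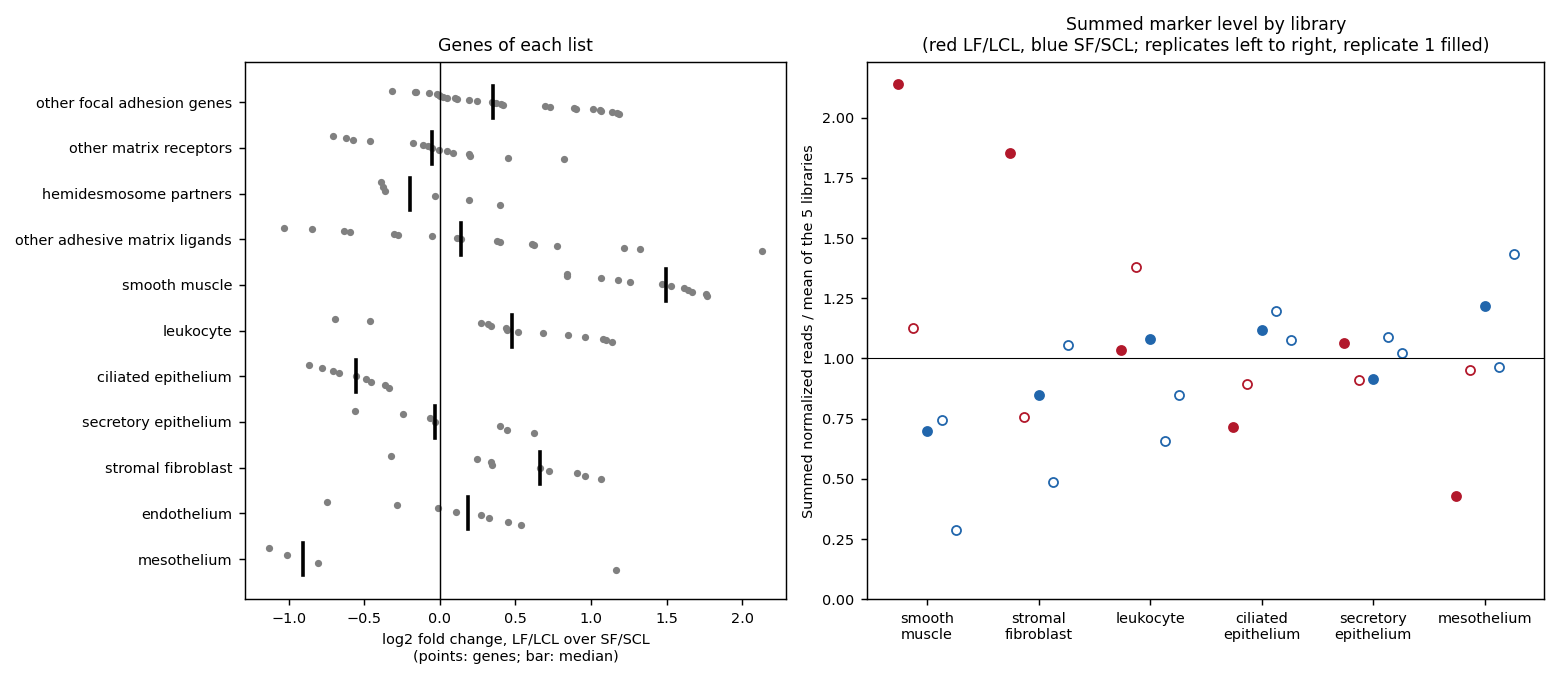
The left panel gives the log2 fold change of each gene (points) and the median (bar) of the other adhesion lists and of the cell type marker lists, and the right panel the summed normalized reads of marker lists in each library relative to the mean of the 5 libraries. All smooth muscle points lie to the right of 0 and all ciliated cell points to the left, and LF/LCL replicate 1 has the highest sum of smooth muscle and fibroblast markers.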

How the data were processed

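Ampulla RNA of 5 cows was sequenced by the authors, who trimmed the reads, aligned them to the masked UMD cattle assembly with TopHat2 2.0.8 and Bowtie2 2.1.0, and counted uniquely mapped reads per Ensembl gene with HTSeq 0.5.4p2 (versions from the submitters' processing notes; use of strand not stated). The deposited unit is a normalized signal, a gene's read count divided by its library's DESeq (1.12.1) size factor. Whole reads were recovered from all nonzero values (tolerance 0.01 reads).

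Groups came from the sample titles. Values were tested as log2(value + 1) with limma 3.58.1 (R 4.3.3, lmFit and eBayes with trend and robust) for genes with a mean over 5, two-sided, without covariates, with Benjamini-Hochberg adjustment and a threshold of 0.05. The limma p-values set each group difference against the spread between cows within groups, drawn toward that of genes of similar level. Within groups, library pairs had a chi-square of 32.8 to 48.7 per degree of freedom, so none repeated another. Alternatives were other filters, pseudocounts and scalings, plain eBayes, edgeR 4.0.16 and DESeq2 1.42.0 on recovered reads, and leaving out each library, for VTN chosen after its values were seen. The fits were tested on simulated data.

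The genes, role classes and other lists were chosen with earlier results of these data known. Values per library are given for the 3 genes with the smallest p and the most abundant gene of each role class, any gene passing by limma or DESeq2, and VCL. Of other lists, genes passing by DESeq2 and the 2 with the smallest p may be named, not all of which are. Further names are given as checks of the tissue or to show other genes of a list. Levels are not compared between genes, as no lengths were used and the planned levels per coding length were not made. No sequence or coordinate is given, as no genome of that build was used here. Of the tested genes 2 are counted but not reported by name here or drawn.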

Additional observations from a re-analysis of the deposited data

How the results depend on the processing

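No paired analysis was possible because the titles carry cow numbers that the groups do not share, and replicate numbers follow accession order. No gene passed adjustment under any limma or edgeR setting, while DESeq2 on recovered reads passed 457 genes; the cause was not tested. With each library left out in turn, from 3 to 18 of the 59 genes had an unadjusted p under 0.05, from 18 to 36 had groups without overlap (fewer libraries overlap less often by construction), and the median log2 fold change ran from 0.047 to 0.34, lowest without LF/LCL replicate 1. Leaving out an LF/LCL library leaves that group with 1, which limma assumes to vary like the others. Between 35 and 44 of the 59 genes had a log2 fold change above 0, depending on the setting. Of 30 named genes 26 kept their direction in every setting. The other 4 were near 0 or rested on LF/LCL replicate 1. With a library left out, TNXB ran from -0.0066 (without LF/LCL replicate 1) to 1.38, ITGB5 from -0.043 (without the same library) to 0.29, ITGA6 from -0.31 to 0.24 (without the same library), with 0.033 without SF/SCL replicate 3, and ITGAE from -0.097 (without LF/LCL replicate 2) to 0.099, with -0.074 without SF/SCL replicate 3. ITGAE was also -0.0018 with TMM scaling and -0.035 with library size scaling. Counts of overlap have no value under another test, pseudocount or eBayes setting. Depth limits ITGAD, VTN and LAMB4, which had few reads.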
